A study of Mus musculus with 185 samples.

Results

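Cell cycle genes were read across single Langerhans cells (LCs) of the mouse epidermis. The members are 45 genes, 18 named for S phase and 27 for G2 and M phase (G2M), taken by symbol from the 45661 genes of the count table. A cell was called a cell with at least 10 members when at least 10 of the 45 genes had a read in it, and 13 of 182 cells met this. The number of members per cell was not used to choose the genes, but the cells were chosen by these reads, so the member levels of the 13 cells are a description.

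A cell that divides copies its DNA in S phase and separates the copies in M phase. In S phase, cells use genes for the replicative helicase, for the sliding clamp PCNA and for nucleotide supply. In G2 and M phase they use cyclins A and B with CDK1, mitotic kinases, kinetochore and spindle proteins, and the enzymes that target mitotic proteins for destruction. LCs are phagocytes of the epidermis that keep their number in the resting skin largely by dividing in place.

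The cells came from bone marrow chimeras (BMC), in which B6 CD45.1 Cd207DTR hosts were lethally irradiated and received WT CD45.2 bone marrow. Cd207DTR places the diphtheria toxin (DT) receptor under the control of the Langerin gene. All mice then received a low dose of DT, meant to leave part of the host LCs in place, and the epidermis was taken some time afterwards. Host cells, labelled E, are embryo-derived LCs (eLCs) and donor cells, labelled M, are monocyte-derived LCs (moLCs), both index sorted one by one by their congenic marker. Both origins therefore shared the irradiated, DT-treated skin, only eLCs carried Cd207DTR, and no animal was named for any cell. Each origin is for this reason 1 sample, cells are not replicates, and no test between origins was possible. The eLCs are host cells that outlived irradiation and DT, and neither an untreated epidermis nor another time point is part of the data.

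Of the moLCs, 67 on plate 1 and 36 on plate 2 were kept, and of the eLCs 29 and 50, after 3 moLCs had been removed because over 5% of their reads fell on mitochondrial genes. The kept cells held 432614 to 4525429 reads each, and the median was 2948819 for moLCs and 2779080 for eLCs. Reads are not molecules here, because the kit adds no molecular identifiers, and each interval below is at 95% and covers counting error only. No 2 cells had identical counts. The sort gate (MHCII+ CD11c+ CD11b+ CD24+ CD326+, without T, B, NK and granulocyte markers) is one for LCs, and every kept cell had a read of 7 or more of 12 LC markers.

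Cells fell into 2 separate ranges by the number of members read. The 13 cells had 16 to 43 of the 45 members, with a median of 35. The other 169 cells had 0 to 9, with a median of 5, and 2 of them had 9. No cell had 10 to 15 members, so a minimum of 15 gave the same 13 cells. The gap was also there without the 4 members that most cells express. Without Pcna, Slbp, Mki67 and Cenpa, the 13 cells had 14 to 39 members and the others 0 to 5.

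**Figure D1:**
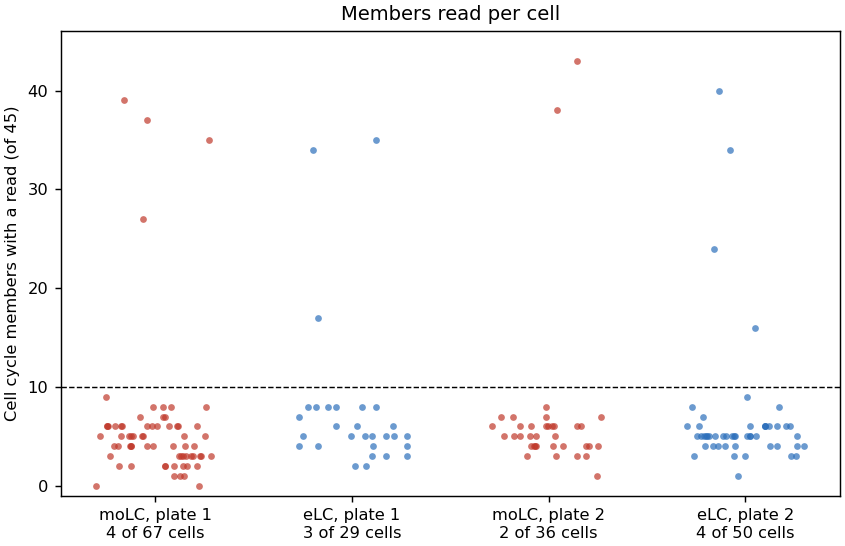
Number of the 45 members with a read in each of 182 cells, by origin and plate (red, moLC; blue, eLC; the horizontal spread of points is random). The dashed line marks 10 members: 13 cells lie at 16 or above, in all 4 groups, and no cell lies between 9 and 16.

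Cells with at least 10 members were found in both origins and on both plates. They were 6 of the moLCs, a share of 5.83% (Clopper-Pearson interval 2.17 to 12.2%), and 7 of 79 eLCs, a share of 8.86% (3.64 to 17.4%). On plate 1 they were 4 of 67 moLCs (5.97%) and 3 of 29 eLCs (10.3%). On plate 2 they were 2 of 36 moLCs (5.56%) and 4 of 50 eLCs (8.0%). Wells of plate column 5 held 5 of these 7 eLCs, and without that column the shares were 6.06% of moLCs (2.26 to 12.7%) and 2.94% of eLCs (0.358 to 10.2%), in the opposite order. The intervals of the origins overlapped in each case. They cover counting error only, and a difference between origins was not tested, because no animal was named for any cell. Thinning to 2052512 reads per cell dropped 7 moLCs and 12 eLCs as too shallow, and the shares then were 6.25% of 96 moLCs and 5.97% of 67 eLCs. The 3 cells with at least 10 members that thinning dropped were all eLCs (eLC 1, eLC 19 and eLC 74), and the origins changed their order. Of these, eLC 1 and eLC 19 also lie in plate column 5, so the change with thinning and that without column 5 share cells.

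Top2a and Mki67, 2 genes often used to mark dividing cells, gave a second count. Top2a encodes the topoisomerase that untangles DNA, and Mki67 encodes the Ki-67 protein of mitotic chromosomes. Among moLCs, 12 had reads of both (11.7%, 6.17 to 19.5%), and among eLCs 7 had (8.86%, 3.64 to 17.4%). Within plates these were 8 of 67 moLCs and 2 of 29 eLCs on plate 1, and 4 of 36 moLCs and 5 of 50 eLCs on plate 2. The order of the origins was thus opposite to that of the first count, and again the intervals overlapped. Of the 19 cells with both genes, 11 had at least 10 members. The other 8 cells (6 moLCs and 2 eLCs) had 4 to 8 members, and 2 eLCs with at least 10 members had no read of Mki67.

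A read of Mki67 alone did not mark the 13 cells. The share of cells with a read of it was 61.2% for moLCs (51.1 to 70.6%) and 60.8% for eLCs (49.1 to 71.6%). It was present in 100 of the 169 cells with fewer than 10 members. In those 100 cells its median was 82.6 CPM (reads of the gene scaled to 1000000 reads of the cell) and its highest value 702 CPM. In the 13 cells it ranged from 0 to 731 CPM with a median of 399 CPM, and 4 of the 169 other cells lay above that median. Top2a was read in all 13 cells, at 52.4 to 715 CPM with a median of 340 CPM. It was read in 12 of the other 169 cells, at no more than 206 CPM. Reads of Mki67 were thus present in most cells of both kinds, while high levels of it were rare outside the 13 cells, and Top2a overlapped in few cells.

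The 13 cells differed in which members they read. Ordered by the share of G2M members among their member reads, they ran from 35.6% (eLC 68) to 97.2% (eLC 74). This order uses the same reads as the choice of cells and describes the cells only. In the lower part were eLC 68, eLC 12 (38.4%), moLC 6 (42.6%) and eLC 45 (47%). In the middle were eLC 19 (57.4%), moLC 58 (58.6%), eLC 30 (59.9%), moLC 16 (64%), moLC 94 (65%) and the moLC of well H3 on plate 2 (69.1%). At the top were moLC 2 (92%), eLC 1 (96.1%) and eLC 74. Both origins were present in each stretch of the order.

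The S members summed to 193 to 6149 CPM per cell with a median of 2189 CPM, highest in moLC 6. Their sum in the other 169 cells had a median of 319 CPM, and 1 of these cells, moLC 77 at 1801 CPM, was above 1000 CPM. The G2M members summed to 621 to 11763 CPM in the 13 cells with a median of 3898 CPM, highest in eLC 1. In the other cells the median was 268 CPM and the highest value 1746 CPM. The lowest of the 13 cells in G2M reads, eLC 12 at 621 CPM, eLC 30 at 864 CPM and eLC 68 at 1285 CPM, lay inside the range of the other cells. The first 2 of these were the cells without Mki67, with 17 and 16 members, and eLC 68 held 304 CPM of Mki67 and 24 members.

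**Figure D2:**
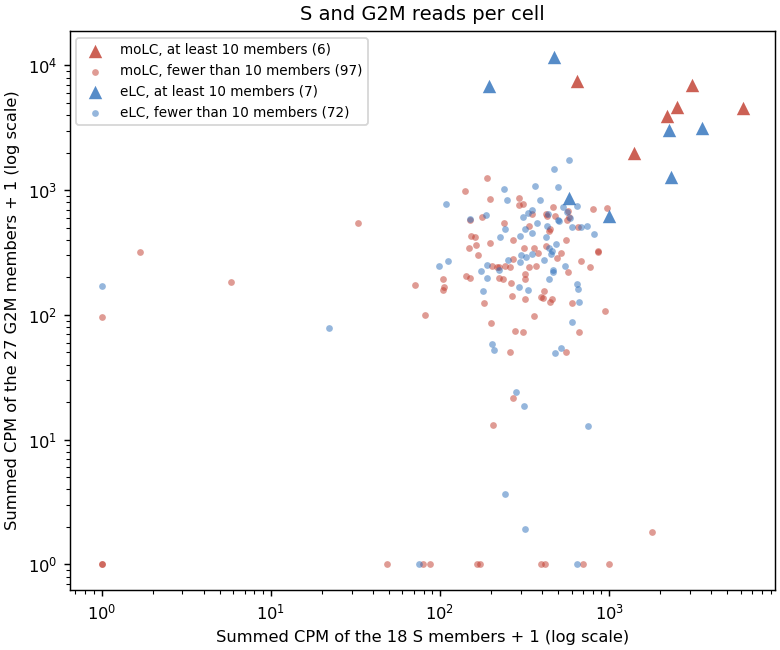
Summed CPM of the 18 S members (x axis) and the 27 G2M members (y axis) in 182 cells, each plus 1 and on log scales; triangles are the 13 cells with at least 10 members, circles the other 169. The triangles of both origins lie above or to the right of most circles, and 3 of them (moLC 2, eLC 1 and eLC 74) combine 6781 to 11763 CPM of G2M members with 193 to 644 CPM of S members.

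Replication genes were read in most of the 13 cells, each at a different depth. The minichromosome maintenance genes Mcm2 to Mcm7 encode the replicative helicase, and each was read in 8 to 11 of the 13 cells. In the other 169 cells, Mcm4 (17.8%), Mcm7 (16.6%) and Mcm6 (11.2%) were still read in some cells, while Mcm2, Mcm3 and Mcm5 were read in 1.78 to 2.96%. Summed CPM over the 13 cells was 129 for Mcm3 against 3.53 in the other cells, and 191 for Mcm6 against 16.2. Cdc45, which joins the helicase at firing origins, was read in all 13 cells, at 5.43 to 317 CPM, and in 6 of the other cells. The loading factor gene Cdc6 was read in 3 of the 13 cells and Gins2, of the same helicase complex as Cdc45, also in 3.

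Of the genes for DNA precursors, Rrm1 had the highest summed level among S members in the 13 cells, at 390 CPM. Rrm1, the large subunit of ribonucleotide reductase, was read in all 13 cells at 6.86 to 1019 CPM, with a median of 341 CPM, and in 14.8% of the other cells. Its small subunit Rrm2 was read in 8 of the 13 cells and 5.33% of the others, and Tyms, the thymidylate synthase, in 11 and 8.88%. Ung, a uracil-DNA glycosylase, was read in none of the 13 cells and in 2 of the other cells. With 3 cells as the limit of a count of 0, none of 13 allows a share of up to 23.1%, and the exact interval reaches 24.7%. Uhrf1 and Hells, which act in the upkeep of DNA methylation, were read in 9 and 8 of the 13 cells and in 4.14% and 2.96% of the others. Ccne2, cyclin E2, was read in 5 of the 13 cells and 3.55% of the others.

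Pcna and Slbp were read in most LCs of either kind. For Pcna, 83.5% of the moLCs and 91.1% of the eLCs had a read, and for Slbp, the histone mRNA binding protein, 80.6% and 87.3%. In the 13 cells Pcna lay at 30.4 to 1029 CPM with a median of 190 CPM, and 45 of the other 169 cells were above that median. The summed level of Pcna was 291 CPM in the 13 cells against 142 CPM in the others, and that of Slbp 222 CPM against 123 CPM. Cenpa, the histone H3 variant of centromeres, was the G2M member of this kind, found in 73.8% of the moLCs and 78.5% of the eLCs, with summed levels of 345 CPM in the 13 cells and 215 CPM in the others. After Mki67, the members next in the share of cells with a read were Mcm4 (40 cells), Rrm1 (38), Mcm7 (36), Tacc3 (34) and Aurka (32). Per kilobase of exon, Ccnb2 (128 CPM per kb), Pcna (121) and Ube2c (94.1) had the highest summed levels in the 13 cells.

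Part of the mitotic genes were nearly confined to the 13 cells. The share of reads that came from the 13 cells ran from 10.1% (Cenpa) to 100% (Bub1) over the G2M members. Over the S members it ran from 0% (Ung) to 87.5% (Cdc6). The cells were chosen by reads of these same members, so this is a description. No share over all genes is given beside these values, and the 13 cells also read more genes in all. Cdc20 had just under 90% of its reads there (3356 of 3729), Aurkb 89.1%, Aurka 28.3% and Mki67 22.9%. Bub1, a kinase of the spindle checkpoint, was read in 11 of the 13 cells, Ube2c, the ubiquitin-conjugating enzyme of the anaphase-promoting complex, in 10, and the motor gene Kif20b in 9. The kinetochore gene Cenpf was read in 8 of the 13 cells and Plk1, polo-like kinase, in 4. None of these 5 genes had a read in the other 169 cells, which by the same limit of 3 cells allows a share of up to 1.78%. The exact interval reaches 2.16%. Ccna2 and Kif11 (each in 11 of the 13 cells), Nusap1 and Hmmr (10), Cdc20 (9), Ccnb1 (8), Ckap2 (7) and Anln (5) had a read in 1 other cell each. Among S members, Cdc6 was the only one read in as few as 1 of the other cells.

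Mitotic cyclins and their kinase had higher summed levels in the 13 cells than in the others. Single cells with a read could still be low, such as moLC 58 with 18.3 CPM of Cdk1. Cdk1, the kinase that drives mitosis, was read in 12 of the 13 cells, with a median of 278 CPM and a highest value of 735 CPM, and in 9 of the other cells at no more than 94.2 CPM. Ccnb1 and Ccnb2, the B-type cyclins, summed to 114 and 196 CPM in the 13 cells and to 0.0991 and 1.52 CPM in the others. Aurka and Aurkb, the Aurora kinases, differed in their spread over cells: Aurka was read in 9 of the 13 and in 13.6% of the others, Aurkb in 10 and in 1.18%. Birc5, the survivin subunit of the complex that holds Aurora B, summed to 269 CPM in the 13 cells and 1.33 CPM in the others. The spindle and cytokinesis genes Tpx2, Tacc3, Kif23 and Ect2 were read in 11, 12, 9 and 9 of the 13 cells and in 5.33%, 13%, 7.10% and 4.14% of the others. For Bub1b and Cenpe, of the checkpoint and the kinetochore, the counts were 9 and 11 cells and the shares 2.37% and 3.55%.

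At the top of the G2M order, 3 cells read all 27 G2M members. In moLC 2, eLC 1 and eLC 74, Ube2c reached 908, 1321 and 855 CPM, while the other 10 cells held 0 to 331 CPM. Ccnb1 reached 752, 778 and 162 CPM there, against 0 to 118 CPM in the other 10, and Cenpf 299, 599 and 755 CPM against 0 to 178 CPM. Cdk1 was at 555 to 735 CPM in the 3 cells and at 0 to 473 CPM in the 10. Mcm2, Mcm7, Cdc6, Hells and Ccne2 had no read in any of the 3. These 3 cells were on both plates and of both origins, and their genes were chosen after their values were seen.

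**Figure D3:**
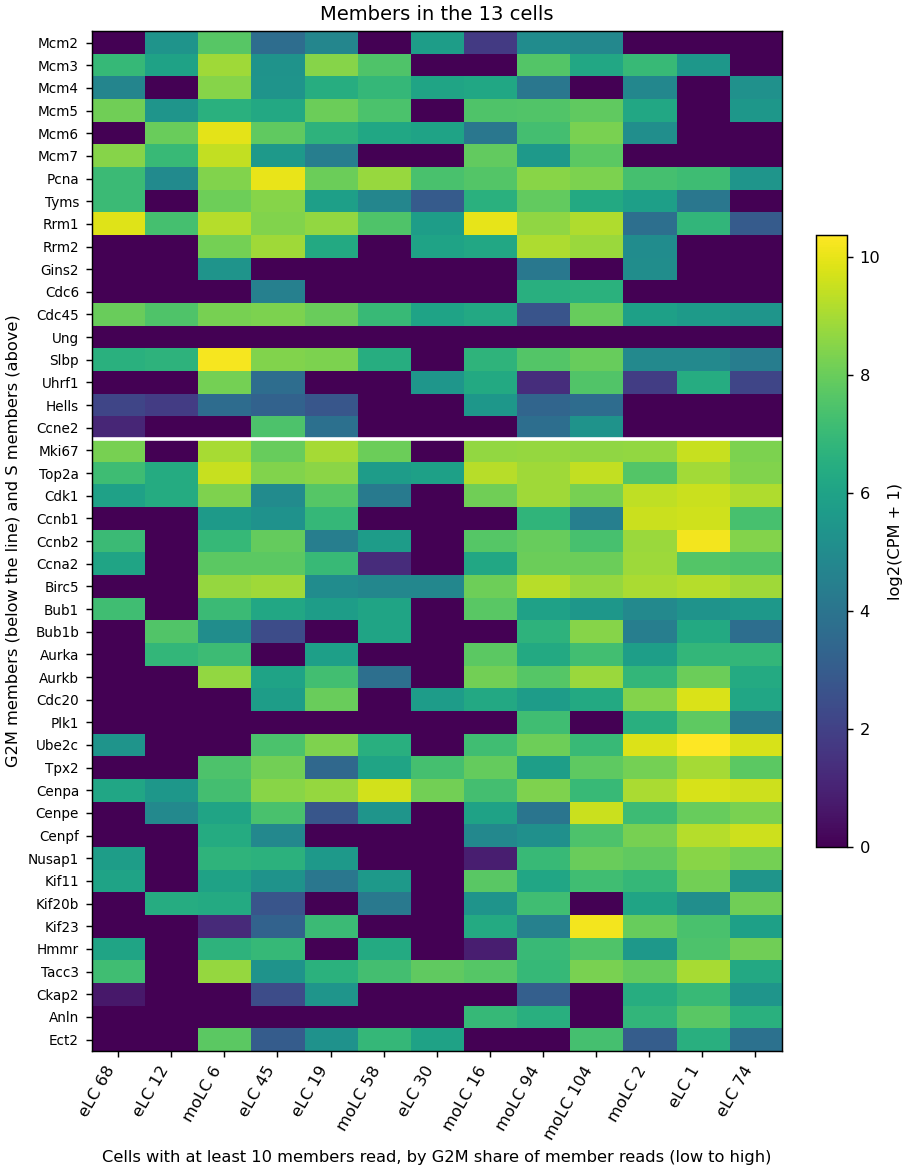
log2(CPM + 1) of the 45 members (rows, S above and G2M below the white line) in the 13 cells with at least 10 members (columns, ordered by the G2M share of member reads, from 35.6% at the left to 97.2% at the right). The 3 columns at the right read all 27 G2M members and hold dark rows for Mcm2, Mcm7, Cdc6, Hells and Ccne2.

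Promoters of members were searched for motifs that cell cycle promoters are known for, in the 250 bases before the RefSeq start (RefSeq on GRCm38.p6, the build of the alignment; 39 of the 45 members matched by symbol). CCAAT is bound by the factor NF-Y, TTTGAA is the core of the CHR element of G2M promoters, and TTTGGCGC, TTTCCCGC and TTTCGCGC are forms of the E2F site. All 5 were searched on both strands. CCAAT was held by 19 of 24 G2M promoters (79.2%) and 11 of 15 S promoters (73.3%), and by 33.9% of all 32851 promoters. TTTGAA was held by 9 of 24 (37.5%) and 2 of 15 (13.3%), and by 16% of all. Any of the E2F forms was held by 1 of 24 (4.17%) and 5 of 15 (33.3%), and by 1.53% of all. These are matches of letters, and a match is not a site.

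The promoters below belong to the 2 S and the 2 G2M members that were read in most cells and hold a motif, which are also the members that most LCs express. Capitals mark motifs on either strand (ATTGG is CCAAT on the reverse strand), and each run is 5′ to 3′ along the gene and ends at the base before the start.

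Pcna (chr2:132253181-132253430, reverse strand): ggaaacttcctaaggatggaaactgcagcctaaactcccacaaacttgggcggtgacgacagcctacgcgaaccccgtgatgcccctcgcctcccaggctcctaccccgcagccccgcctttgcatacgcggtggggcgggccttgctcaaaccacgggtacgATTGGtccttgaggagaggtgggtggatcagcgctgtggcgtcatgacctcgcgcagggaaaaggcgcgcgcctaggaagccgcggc

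Slbp (chr5:33652575-33652824, reverse strand): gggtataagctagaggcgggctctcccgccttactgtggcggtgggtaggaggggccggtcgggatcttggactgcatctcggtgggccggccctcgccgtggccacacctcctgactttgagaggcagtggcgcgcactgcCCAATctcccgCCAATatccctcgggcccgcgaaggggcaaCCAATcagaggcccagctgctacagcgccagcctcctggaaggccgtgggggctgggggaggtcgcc

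Cenpa (chr5:30666636-30666885, forward strand): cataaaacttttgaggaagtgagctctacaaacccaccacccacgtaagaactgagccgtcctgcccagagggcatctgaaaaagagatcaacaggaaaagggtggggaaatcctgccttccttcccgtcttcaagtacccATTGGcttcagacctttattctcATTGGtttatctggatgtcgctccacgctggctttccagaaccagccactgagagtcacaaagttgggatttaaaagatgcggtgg

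Mki67 (chr7:135716380-135716629, reverse strand): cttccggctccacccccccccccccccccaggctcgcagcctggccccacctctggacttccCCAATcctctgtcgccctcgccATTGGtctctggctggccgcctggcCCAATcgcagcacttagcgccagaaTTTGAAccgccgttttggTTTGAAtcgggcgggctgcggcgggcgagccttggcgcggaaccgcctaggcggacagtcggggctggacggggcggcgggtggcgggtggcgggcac

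The Pcna promoter holds 1 CCAAT, that of Slbp 3 and that of Cenpa 2, and that of Mki67 holds 3 with 2 TTTGAA after them. The next promoters belong to the members with no read outside the 13 cells that hold a motif. They were added after the values were seen.

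Bub1 (chr2:127831860-127832109, reverse strand): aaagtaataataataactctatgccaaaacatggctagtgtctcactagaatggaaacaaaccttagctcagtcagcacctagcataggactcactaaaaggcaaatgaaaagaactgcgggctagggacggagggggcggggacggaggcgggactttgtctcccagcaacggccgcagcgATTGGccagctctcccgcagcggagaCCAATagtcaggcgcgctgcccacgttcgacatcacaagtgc

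Cenpf (chr1:189688087-189688336, reverse strand): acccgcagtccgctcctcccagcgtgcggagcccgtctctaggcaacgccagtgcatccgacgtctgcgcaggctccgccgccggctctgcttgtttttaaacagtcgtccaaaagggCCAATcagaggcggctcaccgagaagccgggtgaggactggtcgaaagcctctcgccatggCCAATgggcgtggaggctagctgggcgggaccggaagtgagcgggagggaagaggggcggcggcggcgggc

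Plk1 (chr7:122159185-122159434, forward strand): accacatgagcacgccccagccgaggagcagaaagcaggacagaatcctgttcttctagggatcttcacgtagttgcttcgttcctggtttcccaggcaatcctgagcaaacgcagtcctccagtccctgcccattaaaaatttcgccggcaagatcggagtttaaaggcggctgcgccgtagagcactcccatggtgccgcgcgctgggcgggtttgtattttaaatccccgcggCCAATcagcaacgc

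Ube2c (chr2:164769679-164769928, forward strand): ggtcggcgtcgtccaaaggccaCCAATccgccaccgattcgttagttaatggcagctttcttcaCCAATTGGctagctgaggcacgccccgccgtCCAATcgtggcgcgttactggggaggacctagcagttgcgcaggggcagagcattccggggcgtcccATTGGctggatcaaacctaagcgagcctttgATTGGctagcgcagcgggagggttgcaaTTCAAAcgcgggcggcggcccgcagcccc

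Bub1 and Cenpf hold 2 CCAAT each and Plk1 holds 1. Ube2c holds 6 on both strands, of which 2 overlap, and 1 TTTGAA on the reverse strand, 29 bases before the start. Only promoters that hold a searched motif were printed, so CCAAT in both groups is no comparison between them. Kif20b, also with no read outside the 13 cells, was left out because its promoter holds none of the motifs.

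Between origins, the summed levels of the members over all cells were close, and their direction changed with single cells and with the cells included. The summed S members stood at 495 CPM for moLCs and 474 CPM for eLCs, so that the log2 of moLCs over eLCs was 0.06 (0.05 to 0.08), with 0.12 on plate 1 and 0.086 on plate 2. Without moLC 6 the ratio was -0.11. The summed G2M members stood at 549 CPM for moLCs and 617 CPM for eLCs, so that the log2 of moLCs over eLCs was -0.17 (-0.18 to -0.16), with -0.46 on plate 1 and 0.19 on plate 2. Without eLC 1 it was 0.026. The origins were further apart within the 13 cells, where S members stood at 2684 and 1596 CPM (0.75) and G2M members at 4660 and 3013 CPM (0.63). These 6 moLCs and 7 eLCs were chosen by the same reads, so this is a description, and leaving out single cells was not tried there. Single cells differed widely: moLC 6 held 6149 CPM of S members. Of G2M members, eLC 1 held 11763 CPM, and eLC 12 and eLC 30 held 621 and 864 CPM. In the 169 other cells alone the ratios were -0.058 for S and -0.45 for G2M. The latter lay mostly in Cenpa and Mki67: without these 2 genes the G2M ratio was 0.13 over all cells and -0.15 over the 169 cells. Without the wells of plate column 5, which held 5 of the 7 eLCs with at least 10 members, the ratios were 0.39 for S and 0.25 for G2M.

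The 13 cells held 28.8% of all S member reads and 43.6% of all G2M member reads. Without the 4 broadly read members these shares were 52.1% and 79%.

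Of the 42 members read in at least 5 cells, 3 were at least 2-fold apart in 1 direction over all cells and within both plates. This is 7.14% of them, and 8.39% of all 12545 genes read in at least 5 cells passed the same rule, 4.06% as higher in moLCs and 4.33% as higher in eLCs. The share of members was thus near that of all genes over all cells. It was not after thinning, when 12 of 41 members passed beside 8.41% of all genes, nor in those cells unthinned, where 8 of 41 passed beside 8.50%. All of these were higher in moLCs, and Ccne2 and Ckap2 were not among them. Uhrf1 was higher in moLCs, at 9.25 CPM (9 cells) against 3.19 CPM (7 cells), a log2 ratio of 1.54. It was 2.27 without eLC 25 and 1.02 with another cell left out. Ccne2 was higher in eLCs, at 4.76 CPM (8 cells) against 0.98 CPM (3 cells), a log2 ratio of -2.29. It was -3.28 without moLC 97 and -1.36 with another cell left out. On plate 1 Ccne2 had 18 reads in 1 eLC and none in moLCs. Ckap2, a spindle protein gene, was higher in eLCs at 1.57 CPM (6 cells) against 0.71 CPM (2 cells), a log2 ratio of -1.15. Without moLC 2, which held 192 of the 212 moLC reads, it was -4.55, and with another cell left out it was -0.03. Each of these genes was read in at most 16 cells, and of the 5 members present in 25% or more of the moLCs or of the eLCs none passed the rule.

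The 5 members of that kind were Pcna, Slbp, Mki67, Cenpa and Mcm4. Mki67 stood at 84.2 CPM for moLCs and 99.6 CPM for eLCs, and its log2 ratio was -0.24, with -0.38 and -0.02 in the plates. Cenpa summed to 192 CPM and 267 CPM, a log2 ratio of -0.48, with -0.78 and -0.08. Pcna had a ratio of 0.11, with 0.63 and -0.30, and Top2a, at 30.7 CPM and 23 CPM, one of 0.41, with 0.71 and 0.33. For 19 of the 42 members the plates had opposite signs, and for 24 the sign of the ratio changed when 1 cell was left out. In the share of cells with a read, the intervals of the origins overlapped for all 45 members. The median log2 ratio of the 42 members was 0.10, beside -0.08 over all genes read in at least 5 cells.

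**Figure D4:**
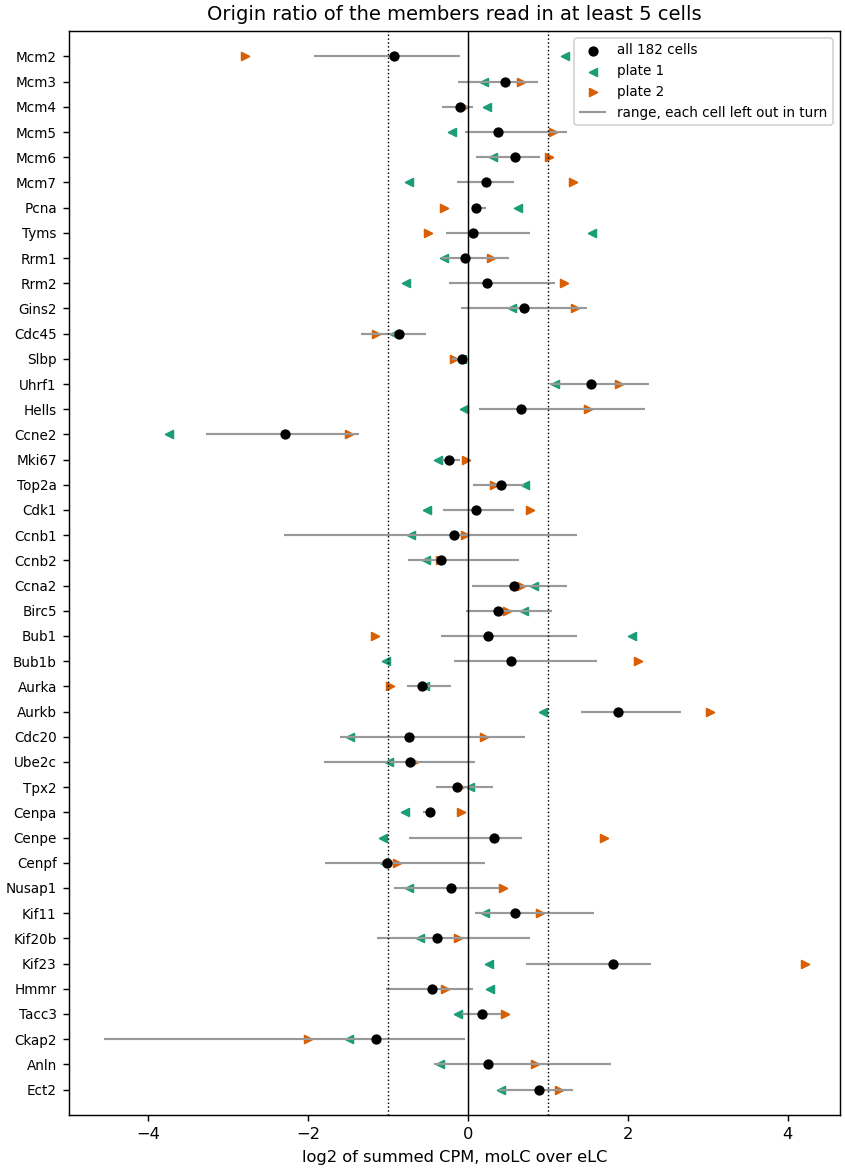
log2 ratio of summed CPM, moLC over eLC, of the 42 members read in at least 5 cells: all 182 cells (black), plate 1 (green) and plate 2 (orange), with a grey line from the lowest to the highest ratio when each cell is left out in turn. The dotted lines mark 2-fold; for 19 members the plates lie on opposite sides of 0, and Uhrf1, Ccne2 and Ckap2 lie past 2-fold on 1 side in all 3.

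Other cell cycle genes, which played no part in choosing the 13 cells, were read there too. Of 94 further S and G2M genes, the 13 cells read 34 to 81, with a median of 61, and the other 169 cells read 5 to 33, with a median of 17. The ranges did not overlap. They did not overlap either after thinning, with 34 to 81 genes in 10 cells and at most 32 in the rest. The highest of the other cells, moLC 57, read 33 of these genes and was 1 of the 8 cells with both Mki67 and Top2a and fewer than 10 members. The 13 cells also had more genes with a read in all, 5036 to 7212 against 2439 to 5307. After thinning to equal reads the counts were 5111 to 7164 against 2416 to 5235, and their part in these results was not tested.

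Of the further genes read in at least 5 cells, 31 of 39 S genes and 40 of 48 G2M genes were at least 2-fold higher in the 13 cells over all cells and within both origins, and none was 2-fold lower. Of all 12503 genes that are not members, 9.73% were higher and 9.99% lower by the same rule, which was set after the data were seen. Among S genes, large differences in the share of cells with a read were in Rpa2, of single-strand binding (11 of 13 cells and 12.4% of the others), Dnmt1, the maintenance DNA methyltransferase (10 and 10.7%), and Tipin, of the replication fork (10 and 11.8%). Among G2M genes the largest were in Racgap1 of the cytokinesis complex (12 and 3.55%), Cenpw of the kinetochore (13 and 12.4%), Nuf2 of the kinetochore (11 and 0%) and Cdca8 of the Aurora B complex (12 and 8.88%). Summed levels followed these shares: Nuf2 stood at 190 CPM in the 13 cells with no read in the others, and Racgap1 at 267 CPM against 4.15 CPM.

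Of the G1 regulators and of the E2F, pocket protein and DREAM genes, a smaller part passed the rule than of the S and G2M genes above. Of 11 G1 cyclin, kinase and related genes read in at least 5 cells, 4 were higher by the rule, and none was read in 50% of all cells. The largest differences in share were in Cdk4 (10 of 13 cells and 24.9% of the others), Cdk2 (9 and 30.2%), Cdc25a (5 and 2.37%) and Ccnd3 (7 and 23.1%). Ccnd2, cyclin D2, had no read in the 13 cells. Of 17 E2F, pocket protein and DREAM genes, 6 were higher. Foxm1, the activator of G2M genes, was read in 9 of 13 cells and 0.59% of the others, and Rbl1, the pocket protein p107, in 10 and 14.8%. Tfdp2, Lin9 and Lin37, tied in the difference of shares, were read in 8, 7 and 13 of the 13 cells and in 9.47%, 1.78% and 47.9% of the others.

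Genes that restrain division were read in the 13 cells as well. Cdkn1a, the inhibitor p21, was read in all 13 at 793 to 7647 CPM with a median of 3778 CPM. In the other cells its median was 2018 CPM and its range 0 to 14366 CPM, so that the ranges overlapped. Btg1 stood at 232 CPM in the 13 cells and 453 CPM in the others, Btg2 at 218 and 227 CPM, Gadd45b at 636 and 1232 CPM, and Fzr1 at 124 and 104.3 CPM. None of these 5 broadly read genes passed the 2-fold rule. The other inhibitor genes with large differences in share were Pkmyt1, the kinase that holds CDK1 inactive (12 of 13 cells and 17.2% of the others), Cdkn2c, the inhibitor p18 (10 and 2.37%), Chek1 (5 and 0.59%) and Gadd45a (7 and 26%). Of 13 inhibitor genes read in at least 5 cells, 4 were higher and 1 lower by the rule. The lower gene was Cdkn2b, the inhibitor p15, with no read in the 13 cells and 6.13 CPM in the others.

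Outside all lists, the 10 genes with the largest difference in share were each read in 10 to 12 of the 13 cells and at most 9.47% of the others. Several are themselves known for cell division: Cep55 acts in abscission (12 of 13 cells), Spc24 in the kinetochore (12), Mad2l1 in the spindle checkpoint (11), Asf1b in histone delivery (12), Pclaf binds PCNA (10) and Hist1h2ae is a replication histone (11). The others were Ube2t (12), Ppil1 (12), Ndc1 (11) and the noncoding gene Lockd (10). No gene outside the lists had a share lower by 50 points or more in the 13 cells, and 238 of 12346 had a share higher by that much.

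**Figure D5:**
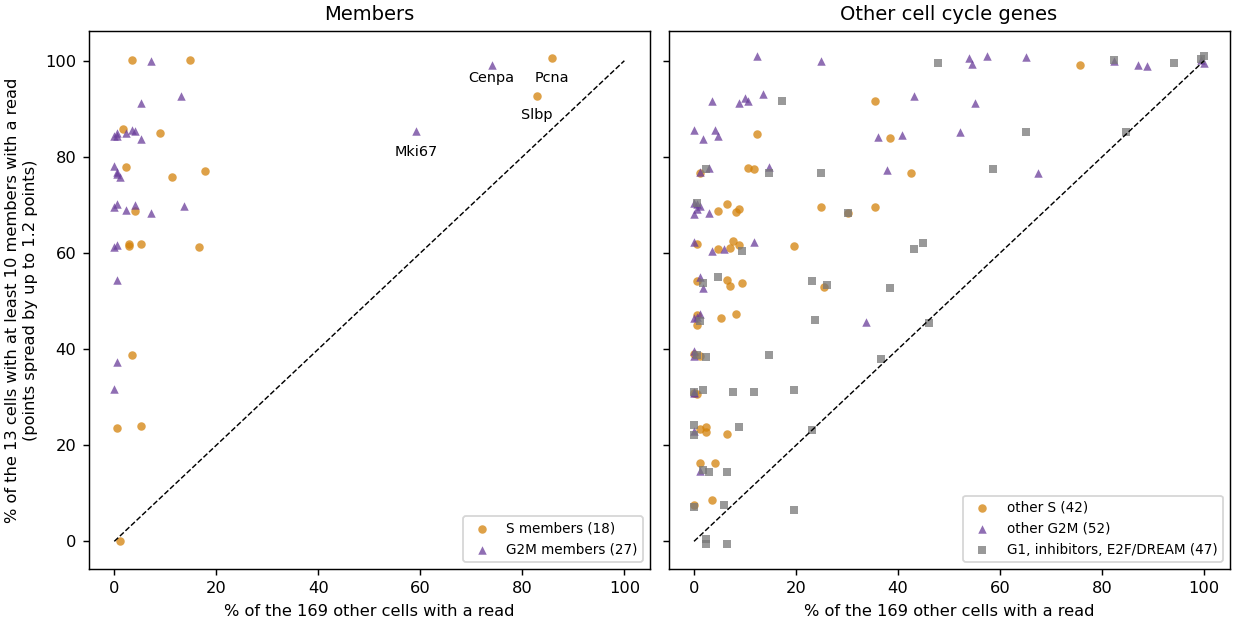
Share of the 13 cells with at least 10 members (y axis) and of the 169 other cells (x axis) with a read of each gene, for the 45 members (left) and 141 other cell cycle genes (right); the dashed line marks equal shares. Pcna, Slbp, Mki67 and Cenpa lie at the right of the left panel, at 59.2 to 85.8% of the other cells, and all 94 other S and G2M genes but 1 lie above the line, with H2afz on it at 100% in both. Most genes had a larger share in the 13 cells: of 12503 genes that are not members, 9678 had a larger and 2482 a smaller share there.

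The 13 cells carried LC genes. Of 12 LC markers, each cell read 10 to 12, and the marker sum was 113087 to 265327 CPM, inside the 11446 to 307387 CPM of the other cells. The lowest of these other values was that of moLC 11. The median sum was lower in the 13 cells, at 174980 CPM against 193272 CPM. H2-Aa, H2-Ab1, Cd74, Epcam, Csf1r, Spi1 and Cd207 were read in all 13. Of 8 T cell markers 7 had no read in the 13 cells, Cd3e among them, with Cd2 in 3 cells. In the 169 other cells 4 of the 8 had no read. The T cell markers summed to 25.7 CPM over the 13 cells and 16.9 CPM over the others. Of 13 keratinocyte markers 8 had none in the 13 cells, Krt14 and Trp63 among them, and 4 had none in the others. Their sum was 0 to 836 CPM against 0 to 765 CPM in the other cells, with most of it in Dmkn. The median sum was higher in the 13 cells, at 118 CPM against 0.80 CPM. Of 10 monocyte and macrophage markers 4 had none in the 13 cells and 3 had none in the others. Their sum was 0 to 544 CPM (median 239.3) against 0 to 1526 CPM (median 286.5). Dermal DC1 markers summed to 24.1 to 669 CPM against 0 to 1384 CPM, with a higher median in the 13 cells (225.9 against 116.6 CPM). All 6 of them were read in a larger share of the 13 cells than of the others. Melanocyte markers summed to 0 to 45.5 CPM against 0 to 220 CPM, and mast cell markers to 0 to 15.9 CPM against 0 to 344 CPM. The part of such reads in these results was not tested. Cells were sorted singly, and no doublet caller was run.

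Cd207, the gene for Langerin, followed origin in only part of the 13 cells. The 7 eLCs held 261 to 2094 CPM, with a median of 1065 CPM. The 6 moLCs held 42.6 (moLC 2), 467 (moLC 94), 5987 (well H3), 17707 (moLC 6), 28005 (moLC 16) and 46500 CPM (moLC 58). The other cells had medians of 24684 CPM in moLCs and 1505 CPM in eLCs. Thus 4 of the 6 moLCs were above all 7 eLCs and 2 were inside or below their range. Ccr7, the receptor for migration to lymph nodes, was read in 5 of the 13 cells (38.5%, 13.9 to 68.4%), 3 moLCs and 2 eLCs, and in 39.1% of the others (31.6 to 46.8%). Its level in those 5 cells was 137 to 1187 CPM, and the summed level was 159 CPM in the 13 cells against 723 CPM in the others, where single cells reached 11689 CPM.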

How the data were processed

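Single LCs of the epidermis of BMC were sequenced by the authors with a Smart-Seq kit and Nextera XT libraries, paired-end, and aligned with STAR to mm10; the counting tool and annotation are not given in the sources used here. The deposited values are raw read counts per gene and cell. In 8 cells the deposited columns hold 9 values midway between whole numbers, in 4 genes, which were handled like expected counts and rounded up. Of the non-zero values 82.9% are even, and the authors do not state how mates were counted.

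The members, gene lists and alternatives were chosen with earlier results of these data known. The named genes are Mki67, Top2a and Pcna, the 5 S and 5 G2M members read in most cells, members past the size rule, in each other list the 4 genes with the largest difference in share of cells with a read, G1 and inhibitor genes read in at least 50% of cells, and the 10 genes outside all lists with the largest such difference. Of these, 1 gene is not reported here. Others were named after their values were seen, among them the further members, given so that all 45 are accounted for.

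Cells with more than 5% of reads on mt- genes were left out (182 of 185 kept, with 432614 to 4525429 reads). CPM is reads scaled to 1000000 reads of a cell or, for sums, of all cells of a group. Shares have exact Clopper-Pearson intervals and ratios binomial intervals, both at 95%. A group with 0 reads was set to 3 reads for ratios. No cell names an animal, so no test was made, and the study's Wilcoxon test over single cells was left out for that reason. The size rule asks for at least 2-fold in 1 direction over all cells and within both plates, among genes read in at least 5 cells. It was tested on simulated data, where genes with no planted difference also passed, so it describes size only. Thinning took each cell to the 10th percentile of totals. Exon lengths and overlaps came from GENCODE on GRCm38: exons of 12 members overlap another gene, Mcm7 and Ccna2 among them, and their reads cannot be told apart without strand. Pseudogene rows of Pcna hold 702 reads in all and that of Ccnb1 44, so these 2 genes may share reads with copies. Promoters came from a RefSeq table. Python 3.11.15, numpy 2.4.6, pandas 2.3.3, scipy 1.17.1 and matplotlib 3.10.9 were used, with edgeR 4.0.16 in R 4.3.3 for TMM factors.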

Additional observations from a re-analysis of the deposited data

Results flagged for a closer look

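Member reads were also present in the 3 moLCs left out for their mitochondrial share, which no comparison used. They held 2 reads in moLC 68, 26 reads in moLC 82 and 290 reads in moLC 85, in 1, 2 and 1 of the 45 members. These cells had 233438 to 920430 reads in all.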

How the results depend on the processing

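Both shares of cells stayed inside their main intervals within each plate, with the 3 left-out cells included, with at least 1000 genes per cell, after thinning and with at least 5 or 10 reads. A minimum of 5 members gave 61% of all cells (54.4% of moLCs and 69.6% of eLCs), and 4 of the S members alone gave 30.2% (25.2% and 36.7%), while 6 of the G2M members alone gave 7.69%. The log2 ratio of the S members (main 0.06) was 0.12 on plate 1, 0.086 on plate 2, 0.14 thinned, 0.12 with TMM, 0.13 without the 50 genes with most reads, 0.021 as a mean over cells, and -0.11 (without moLC 6) to 0.19 (without eLC 45) with each cell left out. That of the G2M members (main -0.17) was -0.46, 0.19, 0.35, -0.11, -0.10 and -0.33, and -0.34 (without the moLC of well H3 on plate 2) to 0.026 (without eLC 1). Alternatives chosen after seeing the data gave -0.058 and -0.45 without the 13 cells, 0.12 and 0.13 without Pcna, Slbp, Mki67 and Cenpa, 0.12 and 0.23 in the 163 cells kept by thinning before they were thinned, and 0.39 and 0.25 without plate column 5, where the share of eLCs with at least 10 members was 2.94%. The 3 members past the size rule became 12 thinned and 8 in those cells unthinned, all higher in moLCs, beside 8.41% and 8.50% of all genes; thinning left out 3 of the 7 eLCs with at least 10 members. They became 7 at 1.5-fold, beside 15.7% of all genes, and 0 of 5 for genes present in 25% or more of the moLCs or of the eLCs, where 2.02% of all genes passed; TMM gave 4. The median of 61 further genes was 66.5 after thinning. No paired analysis was possible because the replicate numbers only name cells. With 13 such cells, a share in 1 origin on 1 plate had an interval of up to 2.19 to 27.4%.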

Other observations

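Of the 13 cells with at least 10 members, 5 came from the 15 kept wells of plate column 5 and 8 from the 167 other kept wells. These 5 cells were eLC 1 and eLC 19 of plate 1 and eLC 30, eLC 45 and eLC 68 of plate 2, all eLCs. The column was noticed after the cells were found. On plate 1 its cells held 606878 (moLC 63) to 2491724 reads (eLC 16), beside medians of 2948819 for moLCs and 2779080 for eLCs. On plate 2 eLC 30, eLC 45 and eLC 68 held 2321114, 2796558 and 3412839 reads. The part of depth in these results was not tested. The column is named again here for its share of cells. Plate column 5 held 4 of the 7 eLCs with reads of both Mki67 and Top2a, and without it these were 12.1% of moLCs and 4.41% of eLCs.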
